A study of Mus musculus with 2 samples.

Results

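Oligodendrocytes, the myelin-forming glia, arise throughout life from precursor cells, and between these 2 states lies a short committed state in which some genes rise and soon fall again. Gpr17, Enpp6, Bmp4, Bcas1, St18, Neu4, Frmd4a and Chn2 are 8 genes with high levels in nuclei of that state in the hypothalamus studied here. They were chosen by their UMI levels in committed nuclei of these data, where a UMI (unique molecular identifier) stands for 1 captured RNA molecule. Their high level in committed nuclei therefore describes the choice and supports nothing, and UMIs of Gpr17, Enpp6 and Bmp4 also define those nuclei. The 8 genes were found among the 32289 features of the count tables by symbol. They were followed in precursors, in committed nuclei and in oligodendrocytes, in a library of aged mice and a library of young mice.

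The aged library pooled the anterior hypothalamus, with the preoptic area, of 5 male mice of 22 months, and the young library that of 5 male mice of 3 months. The labels call the young mice wild-type, and give no genotype for the aged ones. The sources used here do not name a strain. In both libraries, nuclei from the homogenised tissue passed an iodixanol gradient, beads that remove myelin and a sort on the DNA stain DAPI before droplet capture on a 10x Genomics chip, per the labels' protocols. Each age is a single library without replicates, so the text gives no test, and its 95% intervals cover counting error alone. An effect of age and one of the pool or the library preparation cannot be told apart.

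Barcodes with at least 500 genes and at most 5% mitochondrial counts numbered 8597 aged and 10437 young, with medians of 5699 and 5567 UMIs. A doublet caller marked 398 aged and 498 young barcodes, which left 8199 and 9939 nuclei. The libraries shared 25 barcodes, which were kept. Clusters were formed without the 8 genes and named by marker genes. A cluster of low counts, with medians of 683 aged and 708 young UMIs, stayed unnamed and held 519 aged and 90 young nuclei. Precursors, led by Pdgfra, Gpr17, Vcan and Cspg4, numbered 182 aged and 237 young nuclei. Oligodendrocytes numbered 1881 aged and 2132 young nuclei, in a cluster with Opalin, Mal, Aspa and Mog among its leading genes and a smaller one led by Anln, Enpp6, Hapln2 and Apod.

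Gpr17 encodes a receptor related to those for nucleotides and leukotrienes, and is known from cells between the precursor state and the making of myelin. Enpp6 encodes a choline-releasing phosphodiesterase known from newly forming oligodendrocytes. Bmp4 encodes a secreted bone morphogenetic protein, a signal known to hold back oligodendrocyte differentiation. Bcas1 marks early myelinating cells, St18 encodes a zinc finger transcription factor of the Myt family, Neu4 a sialidase, Frmd4a a scaffold protein with a FERM domain, and Chn2 a protein that switches off the small GTPase Rac.

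Windows of 250 bases before RefSeq start sites on the mouse assembly GRCm38.p6 were taken for 5 of the 8 genes, 11 windows in all. Gpr17, Bcas1 and St18 were left out of this search, so it says nothing of them. The 11 windows were searched on both strands for 5 short motifs, and 4 of them held at least 1. The share of all windows that hold any of the 5 was not counted, so nothing is read from the 4. CAGCTG, an E-box, occurs in 13.001% of the 32851 windows of this length that were counted as background. ACAAAG and ACAATG, cores bound by Sox factors, occur in 16.5% and 10.7%. CTGGCAC, a motif of the myelin regulatory factor Myrf, occurs in 4.19%, and AAAGTT, a core bound by the Myt family, in 12.4%. No motif overlaps another in the windows printed here. The windows of Enpp6 and Bmp4 are shown because these genes, with Gpr17, define the committed nuclei. The Chn2 window is shown because it held the most matches. Capitals mark the matches, at 219 bases before the start in Enpp6 and at 224, 167 and 149 bases before it in Chn2. The Bmp4 window held none, which says only that these letters are not in it.
Enpp6, chr8:46986637-46986886, plus strand: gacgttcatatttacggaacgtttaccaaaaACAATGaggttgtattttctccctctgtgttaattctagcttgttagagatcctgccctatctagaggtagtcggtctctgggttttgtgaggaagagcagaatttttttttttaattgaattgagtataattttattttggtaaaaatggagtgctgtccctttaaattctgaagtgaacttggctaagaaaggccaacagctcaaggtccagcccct
Bmp4, chr14:46390670-46390919, minus strand: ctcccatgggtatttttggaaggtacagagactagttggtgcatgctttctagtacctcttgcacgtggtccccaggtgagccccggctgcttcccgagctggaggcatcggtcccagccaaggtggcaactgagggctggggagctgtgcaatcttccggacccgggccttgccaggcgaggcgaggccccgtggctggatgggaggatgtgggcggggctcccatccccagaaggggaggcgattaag
Chn2, chr6:54264608-54264857, plus strand: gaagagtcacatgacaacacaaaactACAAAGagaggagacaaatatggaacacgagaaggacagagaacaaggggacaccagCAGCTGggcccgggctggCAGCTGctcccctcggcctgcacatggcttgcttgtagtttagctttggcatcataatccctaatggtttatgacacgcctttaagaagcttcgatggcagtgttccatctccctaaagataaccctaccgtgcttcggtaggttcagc

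Committed nuclei were almost all from the young library. They were defined as nuclei of a precursor or oligodendrocyte cluster with at least 10 UMIs of Gpr17, Enpp6 and Bmp4 together. By this rule 1 of 2064 aged lineage nuclei was committed (0.0484%, exact Clopper-Pearson interval 0.00123 to 0.27), against 18 of 2387 young lineage nuclei (0.754%, 0.448 to 1.19). The difference was -0.706 percentage points, with a Newcombe score interval of -1.14 to -0.349. All of them lay in the precursor cluster, where they made up 0.546% of the 183 aged and 7.06% of the 255 young nuclei.

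The doublet call bears on the aged count. A further 3 aged barcodes passed the UMI threshold but were marked as doublets, against 0 young ones. With marked barcodes kept, 4 of 2280 aged and 18 of 2628 young lineage nuclei were committed, and the difference was -0.509 points (-0.919 to -0.137). These 3 aged barcodes clustered with precursors when kept, had 4008, 5340 and 8974 UMIs, and held 0 UMIs of the neuronal gene Snap25 and at most 1 of the microglial gene Csf1r and of the astrocyte gene Slc1a2. They also held 2, 4 and 1 UMIs of the myelin gene Mog, against 6 UMIs over all 18 young committed nuclei. Whether they mix with an oligodendrocyte was not tested. Their doublet scores were 0.324 to 0.35, where the lowest score marked in that library was 0.249. The 18 young committed nuclei scored 0.0593 to 0.257, and the lowest score marked in the young library was 0.27.

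The threshold falls in a sparse part of the range, as the bar plot of nuclei by summed UMIs shows. Just outside it, 8 or 9 UMIs were found in 2 aged and 3 young nuclei of the precursor cluster, and in 1 oligodendrocyte of each library. Just inside it, 10 or 11 UMIs were found in 0 aged and 3 young nuclei. With a threshold of 5 UMIs the counts were 15 aged and 26 young nuclei, and the interval of the difference, -0.94 to 0.22 points, included 0. With a threshold of 20 UMIs they were 1 aged and 8 young. Nuclei outside the lineage held at most 2 UMIs of the 3 genes among aged and 7 among young nuclei.

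**Figure D1:**
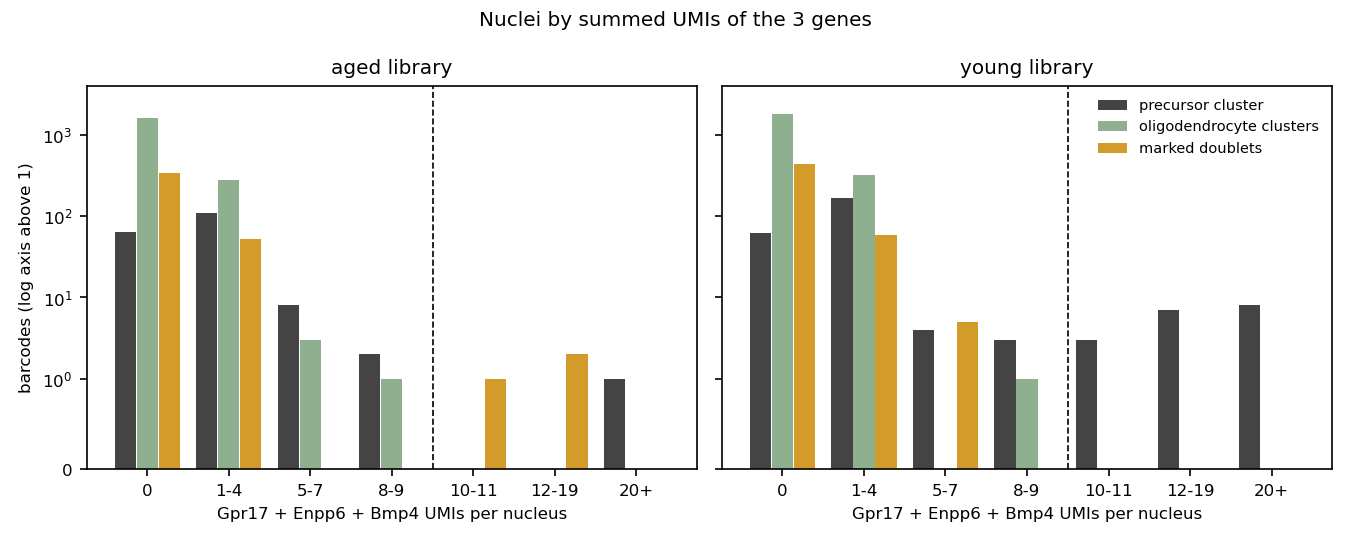
Barcodes (y axis, log scale above 1) by UMIs of Gpr17, Enpp6 and Bmp4 together (x axis), in the precursor cluster, the oligodendrocyte clusters and among marked doublets, with nuclei outside the lineage not drawn; the dashed line is the threshold of 10 UMIs. To its right stand 1 precursor-cluster nucleus and 3 marked barcodes in the aged library, and 18 precursor-cluster nuclei in the young one.

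The name given to these nuclei was compared with the levels of other genes. The lists were chosen with earlier results of these data known, so the counts describe these nuclei and are not an independent check. Of 20 genes known from newly formed oligodendrocytes, 16 had enough UMIs in the young library, of which 14 were at least 1.5-fold higher in committed nuclei than in precursors and 2 lower, with a median log2 ratio of 2.39 against -0.17 over all 8055 genes. The kinase gene Fyn was at 3817 CPM (the counts-per-million scale, over all UMIs of the class) in committed nuclei and 276.3 CPM in precursors (13.8-fold, 11.85 to 16.1), and the transcription factor gene Tcf7l2 at 1678 and 219.6 CPM (7.64-fold, 6.27 to 9.31). Cemip2 and Gprc5b were the 2 lower, with 1 and 0 committed UMIs. Among the 14 higher was Lims2 (2.91-fold), which lies opposite Gpr17, a gene that defines these nuclei. Reads of that pair may not be separable. Of 6 precursor genes 5 were lower in committed nuclei: Pdgfra, the receptor for platelet-derived growth factor, had 1 UMI in the 18 young nuclei against 1243 UMIs in 237 young precursors. Summed over 8 neuronal markers, young committed nuclei had 1037 CPM, young precursors 2039 CPM and young oligodendrocytes 452.3 CPM. The neuronal gene Snap25 had 6, 5 and 5 UMIs in the young committed nuclei that held the most of it. Of these, the nucleus with 10104 UMIs in total had a doublet score of 0.257, the highest of the 18. Whether these nuclei mix with a neuron was not tested. In the same order of classes, 7 astrocyte markers summed to 49.4, 686 and 153.6 CPM. Of 16 myelin genes, 12 had enough UMIs for the comparison with precursors, and 8 of them were higher in committed nuclei and 1, Mobp, lower. Against oligodendrocytes all 16 had enough UMIs and 14 were lower, with a median log2 ratio of -3.86. Of 25 lineage regulators with enough UMIs, 7 were higher in committed nuclei than in precursors, among them Nkx2-2 (2.89-fold), Sox4 (2.64-fold) and Tcf7l2, and 9 lower, among them Sox5, Nfia, Hes5 and Myt1. Over all genes 19.9% were higher and 35.0% lower, so the counts of regulators are near the background.

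Among the 8 genes themselves, each was at least 1.5-fold higher in young committed nuclei than in young precursors, against 19.9% of all 8055 genes with at least 20 UMIs (55.0% in either direction). Against young oligodendrocytes 7 of the 8 were higher, beside 25.7% of 11573 genes higher, 39.8% lower and 65.5% past 1.5-fold in either direction. The choice of genes and of nuclei fixes these counts, and nothing is read from them. St18 was the exception, at 0.774 times its oligodendrocyte level (0.686 to 0.871).

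Gpr17 was a gene of precursors and committed nuclei with few UMIs in oligodendrocytes. In aged precursors it had 325.5 CPM (exact Poisson interval 288 to 367) and in aged oligodendrocytes 2.94 CPM (1.52 to 5.13). In young precursors it had 362.5 CPM (325 to 403), in young committed nuclei 1489 CPM (1280 to 1722) and in young oligodendrocytes 2.06 CPM (0.941 to 3.9). A Gpr17 UMI was seen in 64.8% of aged and 71.7% of young precursors, and in 0.638% of aged and 0.422% of young oligodendrocytes. Neurons showed one in 0.402% of aged and 0.436% of young nuclei, at medians of 8339 and 7756 UMIs against 2023 and 1890.5 in oligodendrocytes. Whether the UMIs in neurons are free RNA was not tested. The level in oligodendrocytes was below that in droplets of 100 or fewer UMIs (6.54 CPM aged and 8.15 CPM young), which hold free RNA. Gpr17 shares its place with the opposite-strand gene Lims2, and the sources used here do not say whether counting used strand.

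Neu4 followed the same order with a smaller step. In the aged library it had 358.5 CPM in precursors and 3.67 CPM in oligodendrocytes. In the young library it had 273 CPM in precursors, 485 CPM in committed nuclei and 1.83 CPM in oligodendrocytes, and its committed level was 1.78-fold that of precursors (1.32 to 2.37). Both oligodendrocyte levels were again under the 8.72 CPM of aged and 5.82 CPM of young droplets.

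Bmp4 and Enpp6 had few UMIs in precursors. Bmp4 had 1 UMI in 182 aged and 5 UMIs in 237 young precursors, 45 UMIs in the 18 young committed nuclei, and 2 UMIs in 1881 aged and 1 UMI in 2132 young oligodendrocytes. Outside the lineage it was found in fibroblasts, at 79.3 CPM (25.7 to 185) in 16 aged and 147 CPM (112 to 190) in 96 young nuclei. Enpp6 had 0 UMIs in 182 aged precursors, which allows a share of nuclei with a UMI of up to 1.65%, and 13 UMIs in 7 of 237 young ones. The upper 95% bound of the aged over young ratio was 0.382. Of the 13 young UMIs, 6 lay in 2 nuclei with no UMI of the precursor genes. Its young committed level of 1176 CPM (992 to 1386) was 86.1-fold that of precursors (48.8 to 166) and 11.7-fold that of oligodendrocytes (9.62 to 14.2).

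Enpp6 differed most between the oligodendrocyte clusters among the 5 genes with enough UMIs there, and the clusters had been formed without it. In the Anln-led cluster it had 334 CPM in 295 aged nuclei and 285 CPM in 541 young nuclei, against 47.1 CPM in 1586 aged and 29.15 CPM in 1591 young nuclei of the Opalin-expressing cluster. The ratio was 7.09 (5.79 to 8.7) in the aged library, where 8.77% of genes were higher by 1.5-fold, and 9.79 (7.76 to 12.5) in the young library, where 8.7% were. Chn2 was 1.58-fold lower (1.26 to 2) in the Anln-led cluster of the aged library, where 14.8% of genes were lower, and 1.29-fold lower (1.1 to 1.52) in that of the young one, the second short of 1.5-fold. Bcas1, St18 and Frmd4a differed by under 1.5-fold between the clusters in both libraries.

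The ratio between the ages was not the same within the clusters as over them. Summed over oligodendrocytes Enpp6 had 101.8 CPM (92.2 to 112) in the aged and 100.6 CPM (91.4 to 110) in the young library, a ratio of 1.01 (0.883 to 1.16). Within the Opalin-expressing cluster the aged library was 1.62-fold higher (1.24 to 2.12), and within the Anln-led cluster 1.17-fold (0.994 to 1.38). The Anln-led cluster held 295 of 1881 aged and 541 of 2132 young oligodendrocytes, so the ratio over both clusters also depends on their mix.

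St18 was at its highest in oligodendrocytes. In the aged library it had 8.57 CPM in precursors and 3043 CPM (2990 to 3097) in oligodendrocytes. In the young library it had 118 CPM in precursors, 2328 CPM in committed nuclei and 3007 CPM (2956 to 3059) in oligodendrocytes, and 96.1% of aged and 95.3% of young oligodendrocytes held a UMI. Bcas1 was at 500 CPM in aged precursors and 547 CPM in aged oligodendrocytes. It peaked in committed nuclei of the young library, at 476 CPM in young precursors, 5043 CPM in young committed nuclei and 598 CPM in young oligodendrocytes, and each of the 18 young committed nuclei had 13 to 96 UMIs. Chn2 had 41.6 CPM in aged precursors and 166 CPM in aged oligodendrocytes, and 49.4, 1374 and 191 CPM in young precursors, committed nuclei and oligodendrocytes. It was also present in microglia, at 716 CPM aged and 713 CPM young, and in endothelial nuclei, at 597.5 CPM in 21 aged and 709.5 CPM in 24 young nuclei.

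Frmd4a had up to 530 UMIs in a single committed nucleus. It was a common transcript outside the lineage, at 1223 CPM in aged and 1270 CPM in young neurons, 1185 and 1393 CPM in microglia, and 1486 and 1662 CPM in astrocytes. Lineage cells on either side of commitment had little: 356 CPM in aged and 409 CPM in young precursors, and 111 CPM in aged and 92.1 CPM in young oligodendrocytes, all at or below the droplet levels of 412 CPM aged and 646 CPM young. In young committed nuclei the sum was 12660 CPM (12040 to 13310). Single oligodendrocytes held at most 9 in either library and precursors at most 7 among aged and 80 among young nuclei. The Frmd4a locus spans 596.3 kb on chromosome 2 and overlaps 11 other counted features, 7 of them on its own strand, in the GENCODE M21 annotation, so that reads from it could be split among them.

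**Figure D2:**
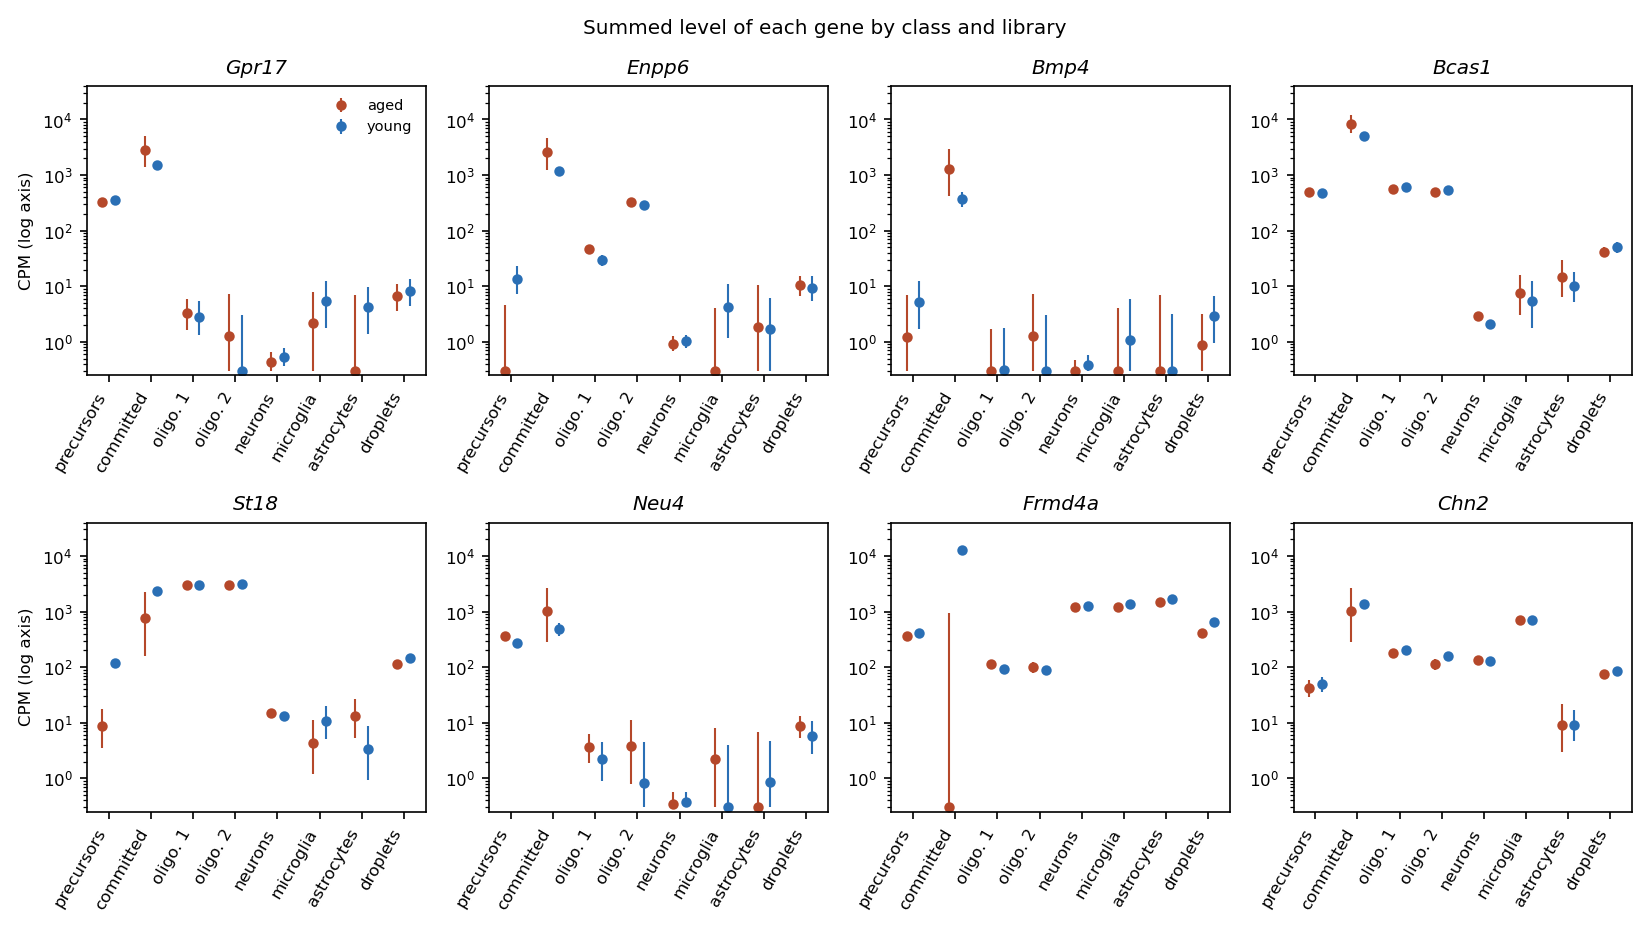
Summed level of each of the 8 genes in CPM (y axis, log scale, values below 0.3 drawn at 0.3) by class of nuclei (x axis), with the aged library left of the young one and exact Poisson 95% intervals; "droplets" are barcodes of 100 or fewer UMIs and the aged committed point is 1 nucleus. Frmd4a stands at 12660 CPM in young committed nuclei, while St18 is higher in both oligodendrocyte clusters than in young committed nuclei (2328 CPM).

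The single nuclei were not alike. The unmarked aged committed nucleus, with 3924 UMIs, held 11 UMIs of Gpr17, 10 of Enpp6, 5 of Bmp4, 33 of Bcas1, 3 of St18, 4 of Neu4, 0 of Frmd4a and 4 of Chn2. In the 18 young committed nuclei, Gpr17 ran from 1 to 26 UMIs with a median of 8.5, Enpp6 from 0 to 25 with a median of 8.5, and Bmp4 from 0 to 8 with a median of 2. St18 ran from 2 to 58 (median 11), Neu4 from 0 to 8 (median 3) and Chn2 from 0 to 31 (median 6.5). Frmd4a was either absent or high: 6 of the 18 held 0 UMIs, and the other 12 held 12 to 530.

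The 12 young nuclei with Frmd4a had more Enpp6 and St18, and the 6 without it more Gpr17 and Neu4, in a split chosen after the values were seen. Gpr17 stood at 1131 CPM in the 12 nuclei with Frmd4a and 2560 CPM in the 6 without, and Neu4 at 351 and 886 CPM. Enpp6 stood at 1350 CPM with Frmd4a and 656 CPM without, and St18 at 2580 and 1575 CPM. The nuclei with Frmd4a were also deeper, with a median of 7110 UMIs against 3786. Over the 18 nuclei, shares of UMIs gave a Spearman rho of -0.617 between Gpr17 and Frmd4a, 0.615 between Enpp6 and Frmd4a, 0.638 between St18 and Frmd4a, and 0.553 between Gpr17 and Neu4. These nuclei come from 1 library, the threshold on the sum ties Gpr17 to Enpp6 (rho -0.589), and the Gpr17 share fell with the total UMIs of the nucleus (rho -0.69), so these are descriptions only.

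All 3 marked aged barcodes held Frmd4a. They had 101, 152 and 395 UMIs of Frmd4a, 20, 21 and 51 of Bcas1, 9, 11 and 19 of St18 and 4, 2 and 4 of Gpr17. The unmarked aged nucleus held no Frmd4a UMI, but its Enpp6 level, 2548 CPM on 10 UMIs, was above that of the young nuclei with Frmd4a. The heat map of single nuclei shows them side by side.

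**Figure D3:**
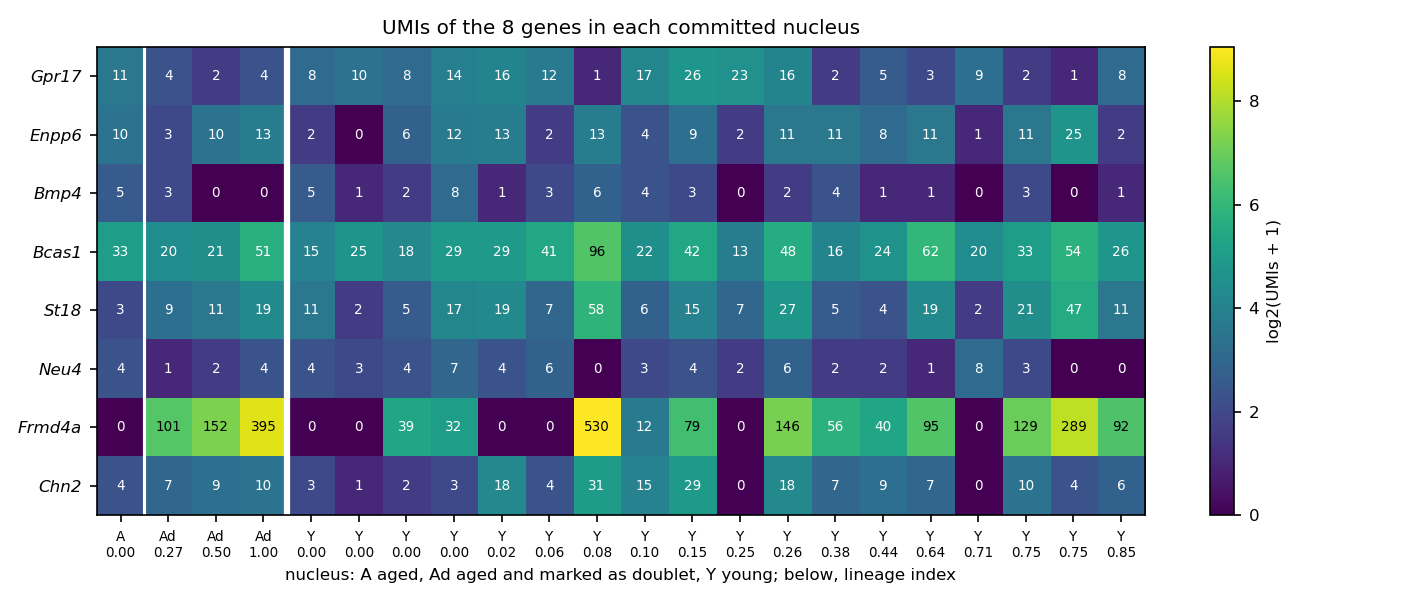
UMIs of the 8 genes (rows, numbers in cells, colour log2 of UMIs plus 1) in each committed nucleus (columns), aged nuclei left of young ones and marked doublets shown as Ad, ordered within each set by the lineage index printed below. Frmd4a is 0 in the unmarked aged nucleus and in 6 of 18 young ones, and 101 to 395 in the 3 marked aged barcodes.

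A lineage index placed the nuclei without use of the 8 genes. It is the share of 6 myelin genes in the UMIs of 6 myelin and 6 precursor genes, and runs from 0 in precursors to 1 in oligodendrocytes. Of the nuclei with at least 5 such UMIs, 8 aged and 11 young lay between 0.2 and 0.8, and 0 of the 8 aged but 7 of the 11 young were committed, so that any trend along the index rests on bins of under 20 nuclei. Of the 18 young committed nuclei, 9 lay below 0.2 and 1 above 0.8, and 1 had under 5 index UMIs and was not placed. With marked doublets kept, 142 aged and 166 young barcodes lay in this middle range, of which 2 and 7 were committed.

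The ages were compared with committed nuclei set apart. In precursors 6 of the 8 genes had at least 20 UMIs over both libraries, and 1 of them, St18, passed 1.5-fold in either direction, against a background of 20.3% of 9964 genes (9.47% lower and 10.9% higher). A share of 1 in 6 is near that background, and nothing is read from it. Enpp6 and Bmp4 fell short of 20 UMIs. The aged over young ratio was 0.898 for Gpr17 (0.762 to 1.06), 1.05 for Bcas1 (0.918 to 1.21), 1.31 for Neu4 (1.11 to 1.56), 0.871 for Frmd4a (0.746 to 1.02) and 0.843 for Chn2 (0.525 to 1.34). With the committed nuclei counted as precursors, 6 of the 8 genes passed 1.5-fold, all lower in the aged library, beside 21.7% of genes in either direction. The choice of the genes and the 1 aged against 18 young nuclei added fix that count.

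Most of the St18 difference in precursors came from 5 young nuclei. It had 7 UMIs in 6 of 182 aged precursors and 112 UMIs in 14 of 237 young ones, 13.7-fold lower in the aged library (6.45 to 35.0). Of the 112 young UMIs, 98 came from the 5 young precursors with a lineage index of 0.2 or more on any number of index UMIs, which no aged precursor reached, and 50 came from 1 nucleus. Without such nuclei the counts were 7 UMIs aged and 14 UMIs young, and the log2 ratio of St18, after adding 5 CPM to each side, was -0.57 in place of -3.18. By the ratio with nothing added, St18 still passed 1.5-fold there, 1 of 6 genes with enough UMIs, beside 9.15% of all genes lower. The 3 young nuclei with the most St18 had 18, 27 and 50 UMIs of it, 80, 25 and 3 of Frmd4a, no UMI of the 6 precursor genes, and 8, 3 and 0 UMIs of the threshold genes. The St18 levels in precursors, 8.57 CPM aged and 118 CPM young, were both below those of droplets (112.5 CPM aged and 143.7 CPM young).

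In oligodendrocytes 7 of the 8 genes had enough UMIs and 1, Neu4, passed 1.5-fold, against 14.6% of 13008 genes (10.1% higher and 4.49% lower). Neu4 had 15 UMIs in 7 aged nuclei and 8 UMIs in 8 young nuclei, a ratio of 2.01 with an interval of 0.799 to 5.47, and 7 of the aged UMIs came from 1 nucleus. With marked doublets kept, 0 genes passed 1.5-fold, beside 12.3% of all genes. The ratios of Bcas1 (0.914, 0.863 to 0.967) and Chn2 (0.87, 0.785 to 0.964) lay below 1, that of Frmd4a above it (1.21, 1.06 to 1.39), and that of St18 was 1.01 (0.987 to 1.04). With free RNA subtracted the log2 ratio of Frmd4a was 3.39 in place of 0.26, and both its levels lay under those of droplets. The median of all gene ratios in oligodendrocytes was 1.07. Taking that median as the scale lowers the log2 ratios by about 0.10, which puts Enpp6 and St18 at -0.08 each in place of 0.02.

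**Figure D4:**
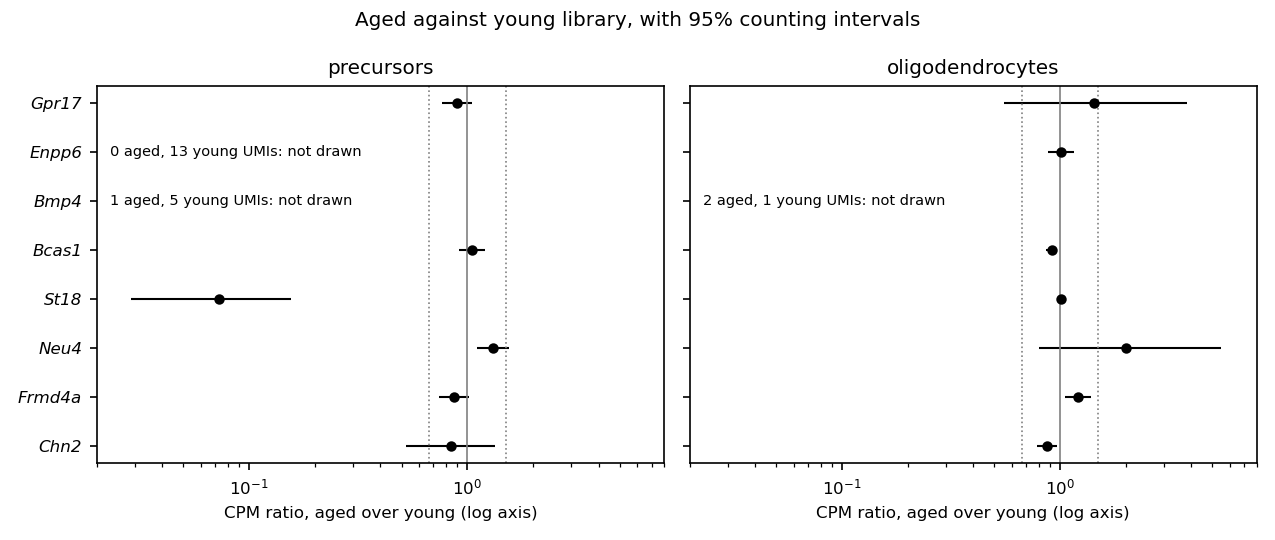
Ratio of CPM, aged over young (x axis, log scale), for the 8 genes in precursors and oligodendrocytes, with exact conditional 95% counting intervals; dotted lines mark 1.5-fold in both directions, and genes with under 20 UMIs are not drawn. In precursors only St18 lies beyond the dotted lines, at 13.7-fold lower in the aged library.

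The genes whose pattern was most like that of the 8 were ranked by the smaller of their log2 ratios in young committed nuclei against precursors and against oligodendrocytes. The first 10 with established names were Nhsl2, Kif19a, Epb41l2, Map1b, Fyn, Tmem108, Pik3r3, Pdcd4, Man1c1 and Bcas1os2. Kif19a, a kinesin gene, had 35 UMIs in 13 of 18 committed nuclei and 1 UMI in 2132 young oligodendrocytes. Epb41l2, a gene of the band 4.1 family of membrane skeleton proteins, was at 1695 CPM in young committed nuclei, 50.4 CPM in precursors and 81.1 CPM in oligodendrocytes. Bcas1os2 lies antisense over Bcas1, so reads of the pair may not be separable. On the same scale 1 other gene stood above Bmp4, 3 above Frmd4a, 10 above Enpp6 and 412 above St18. The 3 above Frmd4a, named after their values were seen, were the provisional features Gm36988, 9530059O14Rik and Gm13187, of which Gm36988 and Gm13187 overlap the Frmd4a locus.

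Of 17 relatives of the 8 genes 9 had enough UMIs against young precursors, with 2 higher in committed nuclei and 4 lower, near the shares over all genes (19.9% higher and 35.0% lower). Frmd4b, a relative of Frmd4a, was 9.89-fold higher in committed nuclei than in precursors (6.33 to 15.6) but 1.66-fold lower than in oligodendrocytes (1.25 to 2.26). Myt1, a relative of St18, was 5.76-fold lower in committed nuclei than in precursors (2.89 to 13.5). Of 29 genes of the bone morphogenetic protein pathway 11 had enough UMIs, with 5 higher and 3 lower than in precursors, beside the same shares over all genes. Smad7, an inhibitor of the pathway, was 3.26-fold higher than in precursors (1.66 to 6.11) but 2.6-fold lower than in oligodendrocytes (1.57 to 4.655). Bmpr2, a receptor gene, was 2.36-fold lower than in precursors (1.05 to 6.58), on 6 committed UMIs.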

How the data were processed

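Single-nucleus RNA was profiled in 1 aged and 1 young library. The authors deposited raw counts of UMIs per gene and barcode, unfiltered and not normalised, in matrices that name Cell Ranger 4, per the file headers. The sources do not give the genome build, the annotation or the use of intronic reads and strand. Barcodes with at least 500 genes and at most 5% mitochondrial UMIs were kept, and Scrublet (scanpy 1.11.5) marked doublets per library. Nuclei were clustered by the Leiden method on 2000 variable genes without the 8 genes, 30 components and 15 neighbours. Clusters were named from marker lists and stand for nuclei that resemble a type. UMIs were summed per library and class as CPM, with intervals from scipy 1.17.1. The ratio code was tested on simulated data. Genes with at least 20 UMIs and a 1.5-fold ratio were counted. Genes named for their likeness had at least 30 UMIs in young committed nuclei and a UMI in at least 1 in 3 of them. The 8 genes, lists and thresholds were chosen with earlier results of these data known. Alternatives covered filters, doublets, scaling, free RNA and thresholds.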

Additional observations from a re-analysis of the deposited data

Results flagged for a closer look

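A signal in barcodes left out of the comparisons: 3 of the 398 aged barcodes marked as doublets (0.754%, 0.156 to 2.19) held 10 or more UMIs of Gpr17, Enpp6 and Bmp4, against 0 of 498 young marked barcodes, which a Clopper-Pearson interval limits to 0.738%. All 3 had 101 or more UMIs of Frmd4a. Whether they are single nuclei was not tested.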

How the results depend on the processing

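The difference between the libraries in the share of committed nuclei (-0.706 points) stayed negative under the 12 alternatives run, from -6.51 points as a share of the precursor cluster to -0.251 points with nuclei thinned to 1000 UMIs and a threshold of 5, where the counts were 1 aged and 7 young and the interval reached 0.0245. With a threshold of 5 UMIs and no thinning the interval also included 0, as given above. A threshold of 20 UMIs gave -0.287. The count of genes past 1.5-fold in precursors (1) became 2 with doublets kept, 3 with no minimum of UMIs and 6 with committed nuclei kept in the class. In oligodendrocytes the count (1) became 0 with doublets kept and 2 with no minimum. The cause was not tested. In precursors St18 ranged in log2 ratio from -4.56 with free RNA subtracted to -0.57 without nuclei of high index. In oligodendrocytes the Frmd4a log2 ratio was 3.39 with free RNA subtracted, against 0.26, and in precursors it turned positive, 0.23 against -0.20, without nuclei of high index. No paired analysis was possible because there is 1 library per age. The alternatives on committed nuclei in the precursor cluster, doublets with no cluster required, left-out nuclei of 5 or more UMIs or of high index (lists included), weighted clusters and doublets along the index were chosen after seeing the data. The 18 young nuclei limit what can be said of the committed state.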

Other observations

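Myelin genes and genes of newly formed oligodendrocytes were more often lower than higher in aged precursors. Of 13 myelin genes with enough UMIs, 7 were at least 1.5-fold lower in aged precursors and 1 higher, and of 17 genes of newly formed oligodendrocytes 6 were lower and 1 higher, where 9.47% of all genes were lower and 10.9% higher. Without nuclei of a lineage index of 0.2 or more, 1 of 10 myelin genes was lower and 2 higher, and 0 of 14 genes of newly formed oligodendrocytes were lower and 1 higher, beside 9.15% and 11.1% of all genes. That index counts myelin genes, so leaving these nuclei out lowers young myelin counts by construction. Mbp, the gene of myelin basic protein, had 55 UMIs in aged and 223 UMIs in young precursors, and 55 and 55 UMIs once those nuclei were left out. Nfasc, which encodes an adhesion molecule of axon contact sites, had 117 and 239 UMIs, and 117 and 131 UMIs without those nuclei.

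A long non-coding transcript named after its values were seen, 9630013A20Rik, had 39.2 CPM (26.8 to 55.3) in aged and 403 CPM (364 to 446) in young precursors. The highest young precursor held 178 of the 384 young UMIs. Without nuclei of index 0.2 or more the levels were 39.2 CPM and 54.1 CPM (40.2 to 71.35). In young committed nuclei it was at 2731 CPM (2445 to 3041), with at least 5 UMIs in 15 of 18, and the 1 aged committed nucleus held 2 UMIs.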
